A study of Mus musculus with 9 samples.

Results

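The transcriptomes of spinal cord spheres and of dorsal root ganglion spheres grown with BMP4 were compared across all genes. The comparison used 6 of the 9 Affymetrix mouse expression arrays of the study, the 3 titled SCSC and the 3 titled BMP NCSC. SCSC were neurospheres, which are free-floating colonies of dividing cells, taken at embryonic day 12.5 from the spinal cord of C57BL/6J mice. BMP NCSC were neurospheres from the dorsal root ganglia (DRG) of embryos of the same strain and day. All were taken at passage 3 and had been grown in serum-free DMEM/F12 with N2, B27, heparin, 20 ng/ml bFGF and 20 ng/ml EGF, and the medium of BMP NCSC also held 10 ng/ml BMP4. Tissue and BMP4 therefore differ together, and neither can be told apart from the other within this comparison. The remaining 3 arrays, titled rNCSC, were of DRG spheres grown without added BMP4, and their values are given beside the comparison without a test. Nothing in the labels states that replicate arrays stem from separate litters or cultures, and p-values therefore reflect the spread of these arrays, which may be technical.

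Dorsal root ganglia are sensory ganglia built by the neural crest, a migratory population that leaves the dorsal neural tube and also gives rise to Schwann cells, autonomic neurons, melanocytes and, in the head, cartilage, bone and dermis. The spinal cord is part of the central nervous system (CNS), and its ventricular progenitors, the radial glia, produce neurons and later astrocytes and oligodendrocytes. BMP4 is a secreted ligand that binds type I and type II serine/threonine kinase receptors, which phosphorylate the Smad1, Smad5 and Smad8 proteins. These enter the nucleus with Smad4 and switch on genes such as the Id family, inhibitory Smads and homeobox genes of the Msx and Dlx families.

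Values are on a log2 scale, so a difference of 1 is a 2-fold change. Where 3 values are given for a group they are its arrays 1, 2 and 3, and where values are set against each other SCSC comes before BMP NCSC. A mean is followed by ± its SD (n = 3), and a difference, which is SCSC minus BMP NCSC, by ± its standard error (SE) from limma. The lower end of the scale, where transcripts that are not detected lie, was under about 4, and a difference from a mean under 4 has an uncertain size. Array medians lay between 3.985 and 4.003 over the 6 arrays, and 38.7% to 39.9% of probe sets reached 5. Across genes, arrays of SCSC correlated with each other at Pearson's r of 0.996 to 0.997 and arrays of BMP NCSC at 0.9904 to 0.9955, while the correlations between the groups ran from 0.8396 to 0.8504. Of 18194 genes with a value, the 10320 that reached 5 on at least 3 of the 9 arrays were tested. A gene at the lower end in SCSC could pass this filter only through the other groups, which fixes its direction, and the same holds for a gene at the lower end in BMP NCSC. This limit applies to every list of genes below, also where it is not repeated. For bulk spheres, fewer cells of a type and less RNA per cell cannot be told apart.

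Defining markers of the labelled sources were compared between the groups. Olig2, Pax6 and Sox1, which mark ventricular progenitors of the CNS, were at means of 12.14 ± 0.10, 8.71 ± 0.34 and 7.65 ± 0.51 in SCSC and of 1.47 ± 0.15, 2.25 ± 0.08 and 2.005 ± 0.13 in BMP NCSC. The neural crest markers Sox10 and Snai2 were at 11.56 ± 0.22 and 11.42 ± 0.38 in BMP NCSC and at 4.05 ± 0.15 and 2.90 ± 0.13 in SCSC. The rNCSC arrays, also of DRG spheres, lay with SCSC for these markers. Their means were 12.10 ± 0.05, 8.61 ± 0.33 and 7.57 ± 0.69 for Olig2, Pax6 and Sox1. For Sox10 and Snai2 they were 4.14 ± 0.17 and 2.96 ± 0.08. On these arrays the markers therefore did not follow the labelled tissue. Ngfr, which encodes the p75 neurotrophin receptor used to isolate crest cells, was only moderately present in BMP NCSC, at 5.14, 6.27 and 6.17 on the 3 arrays. Foxd3, a factor of early crest, did not reach 5 in either group, with means of 2.93 ± 0.07 in SCSC and 3.70 ± 0.44 in BMP NCSC. Of the neuronal markers, Stmn2 lay at 2.91 ± 0.06 and 4.01 ± 0.74 and Tubb3 at 6.24 ± 0.25 and 5.01 ± 0.60. Tubb3 was called higher in SCSC (difference 1.23 ± 0.49, limma adjusted p = 0.0434). None of the 14 markers of microglia and macrophages, the 6 of erythroid cells and the 10 of skeletal muscle reached a mean of 5 in either group, and of 12 endothelial markers Egfl7 alone did. Among 8 melanocyte markers the pigment genes Tyr, Dct and Pmel stayed under or near 4 in both groups, with BMP NCSC means of 2.94 ± 0.24, 3.56 ± 0.42 and 3.96 ± 0.06. Kit and Mitf reached a mean of 5 in at least 1 group. Of the 2 melanocyte markers tested, 1 was called lower in SCSC and 1 was not called. The mean over the 8 markers was 3.53 to 3.71 on the SCSC arrays and 4.10 to 4.59 on the BMP NCSC arrays.

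The mean level of connective tissue markers was higher in BMP NCSC. The mean log2 level of 10 markers of meningeal fibroblasts was 3.81 to 3.97 on the SCSC arrays and 7.13 to 7.88 on the BMP NCSC arrays, with 3 markers under 4 in both groups. Of the 6 tested, 5 were lower in SCSC and 1, the IGF-binding protein Igfbp2, was higher (difference 7.42 ± 0.12). For 8 pericyte markers the ranges were 3.83 to 3.89 and 6.68 to 6.80, and Des, Anpep and Abcc9 stayed under 4 in both, while 3 of 4 tested were lower in SCSC and Notch3 was not called (difference 0.996 ± 0.24). An array of each group stood apart for groups of genes: SCSC 2 for Xist and genes of the response to low oxygen, and BMP NCSC 3 for some genes of fat cells, as described at the end. The part of these cells and arrays in the differences was not tested.

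By the rule used here, 46.9% of the genes tested were called, with an adjusted p below 0.05 in limma and a log2 difference of at least 1. Of 10320 genes, 2473 were called higher in SCSC, which is 24.0%, and 2366 were called lower, which is 22.9%. Without the size limit, 8223 genes or 79.7% passed an adjusted p below 0.05. For 8629 genes the highest array of 1 group lay under the lowest of the other, which is 83.6%. Calls in both directions were common, but large differences were more often towards BMP NCSC: 1088 genes were called higher by at least 2 and 1341 lower, 387 and 529 by at least 4, 107 and 203 by at least 6, and 16 and 68 by at least 8. The median difference over all genes tested was 0.10. Counts of called members of gene lists below are to be read beside the shares of 24.0% higher and 22.9% lower. Of the 4839 called genes, 987 had a mean under 4 in the lower group. In 20 of the called genes, probe sets of the same gene were called in opposite directions.

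**Figure D1:**
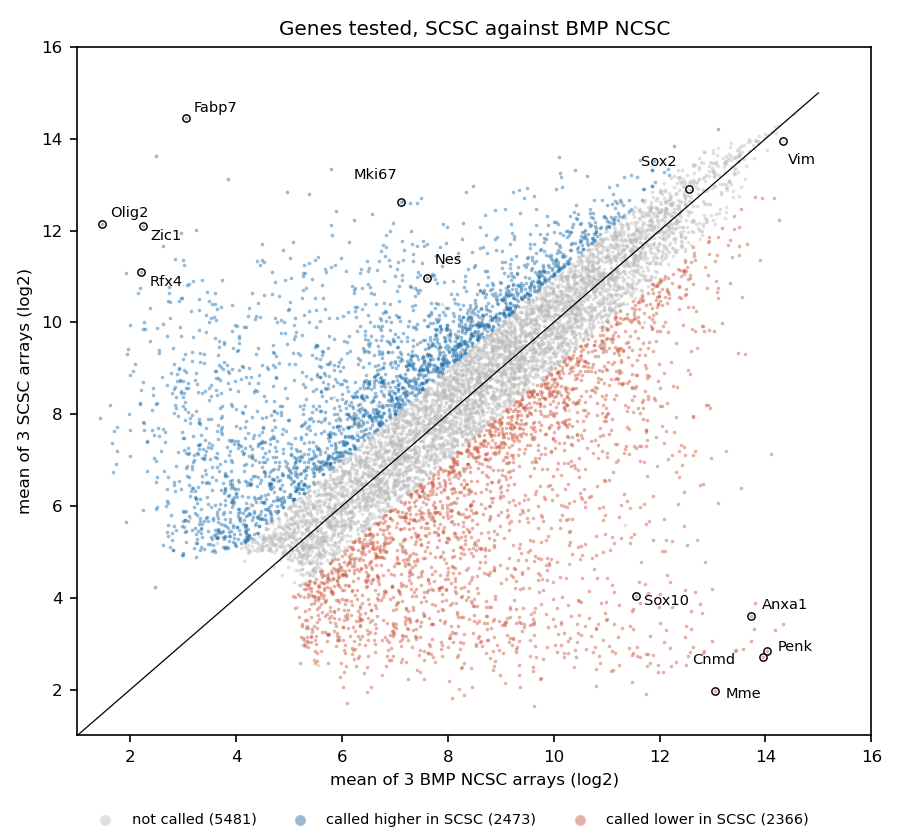
Each point is 1 of 10320 genes tested, with the mean of 3 BMP NCSC arrays on the x axis and of 3 SCSC arrays on the y axis, both on the log2 scale, and the line marks equal values. The 2473 genes called higher in SCSC and the 2366 called lower lie on both sides of it, and Sox2 and Vim lie near it at the upper end.

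The genes with the greatest difference towards SCSC included several transcription factors of the neural tube. Fabp7, which binds fatty acids in radial glia, was at 14.44, 14.44 and 14.45 in SCSC and at 2.86, 2.97 and 3.32 in BMP NCSC. The 3 SCSC arrays were nearly identical and lay far above all BMP NCSC arrays, with a log2 difference of 11.40 (SE 0.12, limma adjusted p = 7.33e-11). Olig2, which specifies motor neuron and oligodendrocyte progenitors, was at 12.18, 12.03 and 12.22 against 1.62, 1.48 and 1.32 (log2 difference 10.67, SE 0.10, adjusted p = 7.33e-11). Its neighbour and relative Olig1 differed by 11.13 ± 0.14, and Zic1, a zinc finger factor of the dorsal neural tube, by 9.87 ± 0.18. Rfx4, a factor that helps set the dorsoventral pattern of the neural tube and its primary cilia, was at 10.93, 11.19 and 11.18 against 2.37, 2.16 and 2.11. Every SCSC array was above 10 for these 4 factors and every BMP NCSC array under 3.

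Membrane and signalling genes of neural cells made up most of the remaining leaders. Grm5, a metabotropic glutamate receptor, was at 10.93, 11.07 and 11.22 in SCSC and 1.93, 1.88 and 1.94 in BMP NCSC (log2 difference 9.16, SE 0.10, adjusted p = 8.66e-11). Gabrg1, a subunit of the GABA-A receptor, was at 10.81, 10.60 and 10.82 against 2.21, 2.20 and 2.16, and the potassium channel Kcnd3 at 11.21, 11.33 and 11.22 against 2.97, 2.79 and 3.29. The arrays of the groups lay far apart for all 3. Gpm6a, a membrane glycoprotein of neurites, differed by 9.28 ± 0.17, the imprinted gene Nnat by 9.04 ± 0.13, the protein kinase C gene Prkcb by 8.995 ± 0.09, Bex1 by 8.77 ± 0.12 and Nap1l5 by 8.36 ± 0.13. Gatm, the enzyme that starts creatine synthesis, was at 11.38 ± 0.20 and 2.85 ± 0.30, and Fut9, the fucosyltransferase that makes the Lewis X (SSEA-1) epitope of neural stem cells, at 10.65 ± 0.06 and 2.15 ± 0.04.

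The genes with the greatest difference towards BMP NCSC included several of cartilage. Cnmd, which encodes chondromodulin, an inhibitor of vessel growth in cartilage, was at 2.66, 2.71 and 2.76 in SCSC and 14.31, 13.37 and 14.18 in BMP NCSC (log2 difference -11.25, SE 0.22, adjusted p = 1.29e-09). The cartilage collagen Col2a1 was at 3.14, 3.26 and 3.46 against 14.31, 14.13 and 14.09, and the cartilage cytokine Cytl1 at 2.87, 2.74 and 3.02 against 13.55, 13.69 and 13.46. All SCSC arrays were under 4 and all BMP NCSC arrays above 13 for these 3 genes. Penk, the precursor of the enkephalin opioid peptides, was at 2.77, 2.79 and 2.94 against 14.07, 14.16 and 13.88 (log2 difference -11.20, SE 0.13, adjusted p = 1.15e-10). Mme, the peptidase neprilysin that degrades enkephalins, was at 2.06, 1.87 and 1.97 against 13.38, 13.07 and 12.70. Its difference of -11.08 ± 1.77 had an adjusted p of 0.000395. The estimate of the spread includes rNCSC, whose arrays were at 1.82, 2.12 and 9.63.

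The growth factor binding gene Ccn2 was at 3.46, 3.57 and 3.24 against 14.36, 14.39 and 14.25, and Mgp, an inhibitor of calcification, at 3.25, 3.31 and 3.39 against 13.92, 13.74 and 13.71. Serpina3n, a secreted protease inhibitor, differed by -10.66 ± 0.12 and Ahr, a ligand-activated transcription factor, by -10.58 ± 0.17. The elastic fibre gene Fbln5 differed by -10.57 ± 0.14, the proteoglycan Bgn by -10.32 ± 0.13, the membrane-binding protein Anxa1 by -10.13 ± 0.13, the lectin Lgals3 by -10.02 ± 0.24 and Islr by -10.001 ± 0.19. Otor, a cartilage protein related to Mia, was at 12.996, 13.14 and 11.35 on the BMP NCSC arrays, where the third array was the lowest, and at 2.54 ± 0.15 in SCSC.

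**Figure D2:**
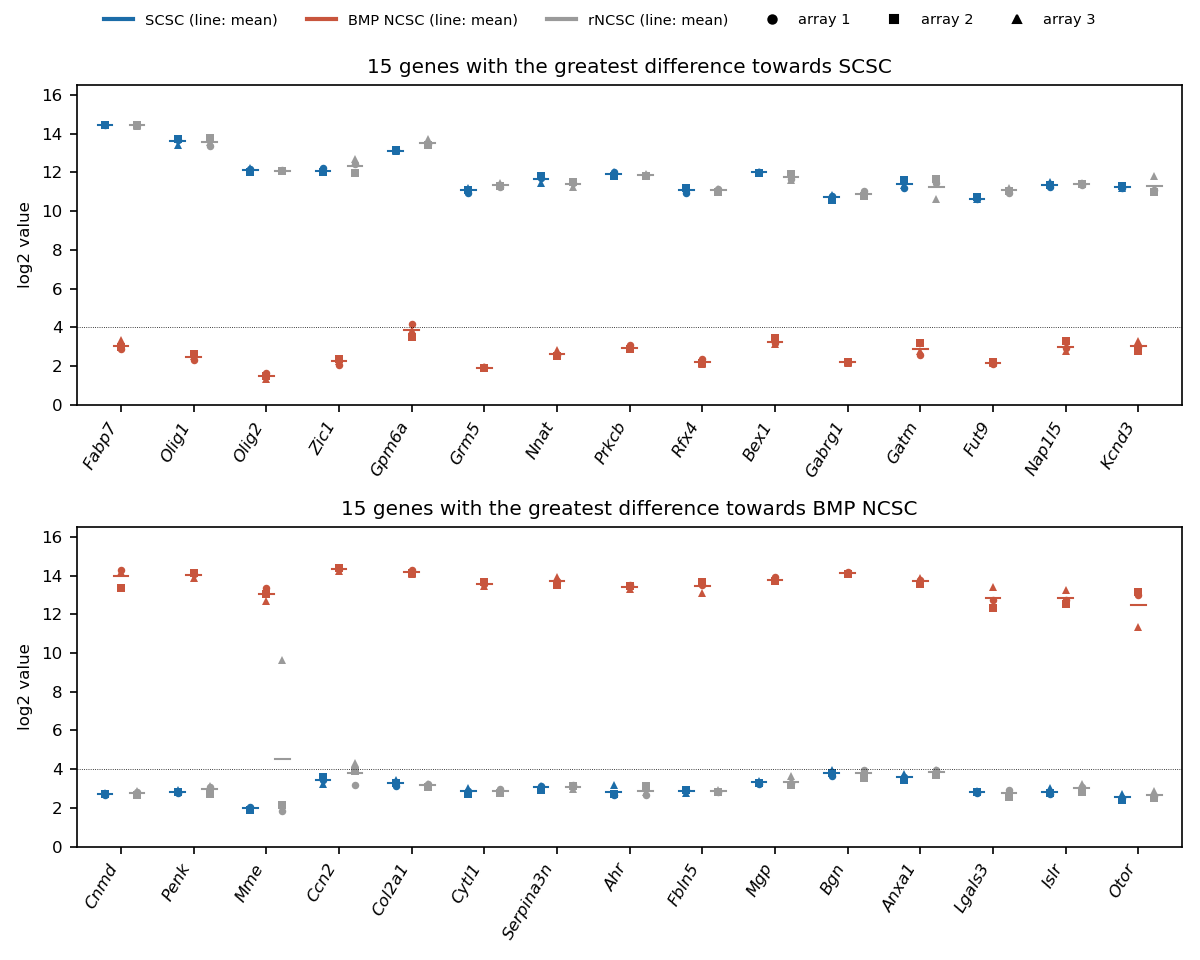
Log2 values on each array (y axis) of the 15 called genes with the greatest difference in each direction, taken from genes whose groups do not overlap and whose higher mean is 8 or more. Symbols are arrays 1 to 3, short lines are means, and the dotted line marks 4. The rNCSC arrays lie with SCSC for all 30 genes except Mme, where rNCSC 3 stands apart at 9.63.

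Most tested transcription factors that pattern the spinal cord or act in neural progenitors were higher in SCSC than in BMP NCSC. Some of them, such as Pax6 (8.61 ± 0.33) and Sall3 (10.12 ± 0.21), were also high in rNCSC, which came from DRG. Of 11 tested factors that pattern the spinal cord, 9 were called higher in SCSC and 1 lower (2 without SCSC 2 or without BMP NCSC 3), with a median difference of 3.44 (all genes: 24.0% higher, 22.9% lower, median 0.10), and 17 with a value did not pass the filter. Pax6 was at 8.72, 9.05 and 8.36 against 2.34, 2.19 and 2.21, and the ventral factor Nkx2-2 at 7.63, 7.50 and 7.06 against 2.29, 2.17 and 2.499. No array of BMP NCSC reached 3 for either. Pax3, a dorsal neural tube factor that crest cells also use, went the other way, at 6.98, 7.31 and 7.04 in SCSC and 9.86, 9.58 and 8.54 in BMP NCSC (log2 difference -2.22, SE 0.47, adjusted p = 0.00226). Among 18 factors of neural progenitors, 14 were higher and 1 lower (median 4.80). Of these lists, 7 of the 11 and 10 of the 18 had BMP NCSC means under 4, and 1 of the 18 had an SCSC mean under 4. These could pass the filter only through the other groups. The POU factors Pou3f4 and Pou3f3 differed by 5.72 ± 0.17 and 4.40 ± 0.20, and the zinc finger gene Sall3 by 7.10 ± 0.17. The lower member was Id4, which inhibits basic helix-loop-helix factors, at 3.97, 3.77 and 3.39 against 11.44, 11.99 and 11.03 (log2 difference -7.78, SE 0.32, adjusted p = 8.22e-08).

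Families of related factors were split between the groups (pairs named after their values were seen). In the SoxB family, which keeps neural progenitors undifferentiated, Sox3 was at 10.62, 10.54 and 10.46 in SCSC and 3.06, 2.85 and 2.95 in BMP NCSC, and Sox1 and Sox21 differed by 5.65 ± 0.35 and 6.46 ± 0.26. Sox2 was instead at 12.85, 12.89 and 12.99 against 12.59, 12.48 and 12.59, and the 95% interval of its difference ran from 0.14 to 0.57. Thus all 6 arrays were above 12 for Sox2, while its relatives were near the lower end in BMP NCSC. In the SoxE family, which acts in glia and crest, Sox8 was at 10.78, 11.05 and 10.67 against 3.24, 2.95 and 3.17, Sox9 at 8.87, 9.004 and 8.89 against 8.23, 7.76 and 7.88, and Sox10 at 3.97, 3.95 and 4.22 against 11.66, 11.72 and 11.31. Sox8 was therefore called higher (difference 7.71 ± 0.14), Sox10 lower (-7.51 ± 0.14) and Sox9 was not called (0.96 ± 0.22), although it was without BMP NCSC 1 (1.10), which takes the crest factors called higher from 1 to 2. For Sox9, 1 of its 3 probe sets was called higher. The zinc finger repressor Zeb1 differed by 4.11 ± 0.11 and its relative Zeb2 by -0.92 ± 0.11, which was not called, although 3 of its 5 probe sets were lower. The orphan nuclear receptors Nr2f1 and Nr2f2 differed by 4.24 ± 0.39 and -2.30 ± 0.30.

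Factors of the crest and of its mesenchymal derivatives were mostly lower in SCSC. Of 15 neural crest factors, 11 were lower and 1 (Zeb1) was higher, with a median of -3.49. Of the 15, 5 had SCSC means under 4 and could pass the filter only through the other groups. Tfap2a, an early crest factor, was at 3.49, 3.37 and 3.69 against 11.01, 11.11 and 10.84, Tfap2b at 2.64, 2.43 and 2.44 against 9.51, 10.80 and 10.87, and the repressor Snai2 at 3.03, 2.88 and 2.78 against 11.29, 11.12 and 11.85. All BMP NCSC arrays exceeded 9 for these 3 genes and no SCSC array reached 4. Of 14 skeletal and mesenchymal factors, 13 were lower and 1 higher (median -5.65), and 18 more, among them the bone factor Sp7 and the tendon factor Scx, did not pass the filter. Of those tested, 8 had SCSC means under 4 and could pass the filter only through the other groups. Alx1, a homeobox factor of craniofacial mesenchyme, was at 2.46 ± 0.04 and 10.80 ± 0.34, and Foxf1, a mesenchymal forkhead factor, at 3.62 ± 0.14 and 10.48 ± 0.20. Tbx18, the exception, was at 5.18, 5.40 and 6.41 against 2.79, 3.36 and 3.10 (log2 difference 2.58, SE 0.55, adjusted p = 0.00233). Among factors of sensory and autonomic neurons, 2 of 7 tested were higher in SCSC and 5 lower: the proneural gene Neurod1 was at 8.55, 8.39 and 8.20 against 2.40, 2.72 and 3.49, while Runx1 differed by -6.96 ± 0.22 and Gata3 by -4.05 ± 0.33. Of the 7, 3 had SCSC means and 1 had a BMP NCSC mean under 4, and these could pass the filter only through the other groups. Isl1, Phox2a and Pou4f1 stayed under 5 in both groups.

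Hox genes, which record position along the body axis, were expressed in both kinds of sphere. Of 21 tested, 8 were lower in SCSC, 0 higher and 13 not called (median -0.998). Without SCSC 2 the lower ones were 5, and without SCSC 3 or BMP NCSC 2 there was 1 higher. Hoxa5 was at 10.98, 10.98 and 10.72 against 10.64, 10.64 and 10.68 and was not called, with a 95% interval of its difference from -0.07 to 0.55. Hoxc8 was at 8.96, 8.47 and 8.33 against 11.65, 11.52 and 11.29, Hoxc4 at 5.12, 4.99 and 5.04 against 8.63, 8.98 and 8.74 and Hoxb9 at 8.94, 7.42 and 7.89 against 10.59, 10.70 and 10.51. The BMP NCSC arrays were above the SCSC arrays for these 3 genes, with differences of -2.90 ± 0.51, -3.73 ± 0.69 and -2.52 ± 0.53. None of 14 forebrain and midbrain factors passed the filter.

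Radial glia and astroglial genes were more often higher in SCSC, with 14 of 26 higher and 3 lower (median 1.70), the latter 5 without BMP NCSC 2. Of the 26, 8 had BMP NCSC means under 4 and could pass the filter only through the other groups. The intermediate filament Nes was at 11.11, 10.94 and 10.85 against 7.67, 7.80 and 7.36, and the glutamate transporter Slc1a3 at means of 12.17 ± 0.08 and 8.29 ± 1.32. Both genes were thus well expressed in BMP NCSC too. The vimentin gene Vim, at 13.95 ± 0.10 and 14.33 ± 0.06, was not called. Clu, which encodes the secreted chaperone clusterin, was the exception with the greatest difference, -6.58 ± 0.31. Of 16 Schwann cell and myelin genes, 6 were higher and 8 lower. Bcas1 and Ugt8a, genes of early oligodendrocytes, differed by 6.49 ± 0.24 and 6.49 ± 0.49, whereas S100b, Erbb3 and Pmp22, which Schwann cells express, differed by -8.30 ± 0.75, -8.64 ± 0.14 and -3.89 ± 0.73. The myelin protein genes Mbp, Mag and Mog did not reach 5 in either group.

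Genes of neurites and synapses were also more often higher in SCSC, 18 of 27 against 2 lower (median 2.10). Of the 27, 7 had BMP NCSC means and 2 had SCSC means under 4, and these could pass the filter only through the other groups. The growth cone protein Gap43 was at 11.53, 11.51 and 11.70 against 3.37, 5.30 and 6.01, a difference of 6.68 ± 0.77 with BMP NCSC 1 the lowest array. The adhesion proteins Nlgn1 and Nlgn3 differed by 5.55 ± 0.13 and 4.96 ± 0.15, while the vesicle proteins Syt1 and Syt4 differed by -2.49 ± 0.52 and -3.88 ± 0.86. Stmn2, Th and Gad1 were under 5 in both groups. Of 25 channels and transmitter receptors, 11 were higher and 8 lower, beside 24.0% and 22.9% of all genes tested. In that list 11 members had BMP NCSC means and 2 had SCSC means under 4. These could pass the filter only through the other groups. Subunits of the AMPA glutamate receptor were split, with Gria2 at 9.62, 9.99 and 9.83 against 3.06, 5.01 and 3.72 and Gria4 at 8.13, 8.27 and 7.99 against 12.01, 12.09 and 10.99. The calcium-activated potassium channel Kcnma1 was at 4.14 ± 0.18 and 10.67 ± 0.52, and the cation channel Trpv4, which responds to osmotic and mechanical stimuli, at 3.43 ± 0.04 and 9.43 ± 0.54.

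Matrix genes outside the CNS group were nearly all lower in SCSC. Of 18 cartilage genes tested, 17 were lower in SCSC and none higher (median -6.92), of 37 fibrous matrix genes 36 were lower and 1 higher (median -6.62), and of 16 basement membrane genes 14 were lower (median -3.75). Many of these passed the filter only through BMP NCSC, since 12, 23 and 3 of them had SCSC means under 4. The cartilage proteoglycan Acan was at 2.87, 2.77 and 3.08 against 12.23, 11.76 and 12.59, and Col9a1, which coats cartilage fibrils, at 3.79, 3.81 and 4.07 against 13.71, 13.70 and 14.02. The fibrillar collagen Col3a1 was at 2.54, 2.49 and 2.79 against 12.58, 12.06 and 12.28. All BMP NCSC arrays were above 11 and all SCSC arrays near or under 4 for these 3 genes. Postn, a matricellular protein, differed by -9.12 ± 0.38, and Fn1, fibronectin, which SCSC expressed at 6.39 ± 0.17, by -7.16 ± 0.29. Fbln1 was the exception, at 7.77, 7.46 and 7.01 against 3.67, 4.18 and 4.09. The probe sets used for the type I collagen genes Col1a1 and Col1a2 did not reach a mean of 5, at 4.12 ± 0.58 and 3.499 ± 0.13 in BMP NCSC. The basement membrane chains Col4a1 and Col4a2, whose genes share a promoter region, differed by -7.68 ± 0.47 and -8.90 ± 0.25. The mean levels of the meningeal fibroblast and pericyte markers given above, some of which are matrix genes, were also higher in BMP NCSC.

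Matrix genes of the CNS went the other way, with 7 of 10 higher in SCSC and none lower (median 2.87). The receptor phosphatase Ptprz1 was at 12.87, 12.84 and 12.80 against 5.47, 5.45 and 3.95, with BMP NCSC 3 the lowest array. Tnc, tenascin-C, was at 13.36, 13.37 and 13.33 against 5.92, 5.63 and 5.83, and the CNS proteoglycan Ncan at 11.78, 11.93 and 11.56 against 4.50, 6.11 and 4.63. No BMP NCSC array came within 5 of the SCSC arrays for these genes. Bcan, another proteoglycan of the CNS, was abundant in both, at 12.67 ± 0.04 and 11.66 ± 0.27, and its call (1.01 ± 0.14) was lost without SCSC 1 (0.99) or BMP NCSC 1 (0.86).

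**Figure D3:**
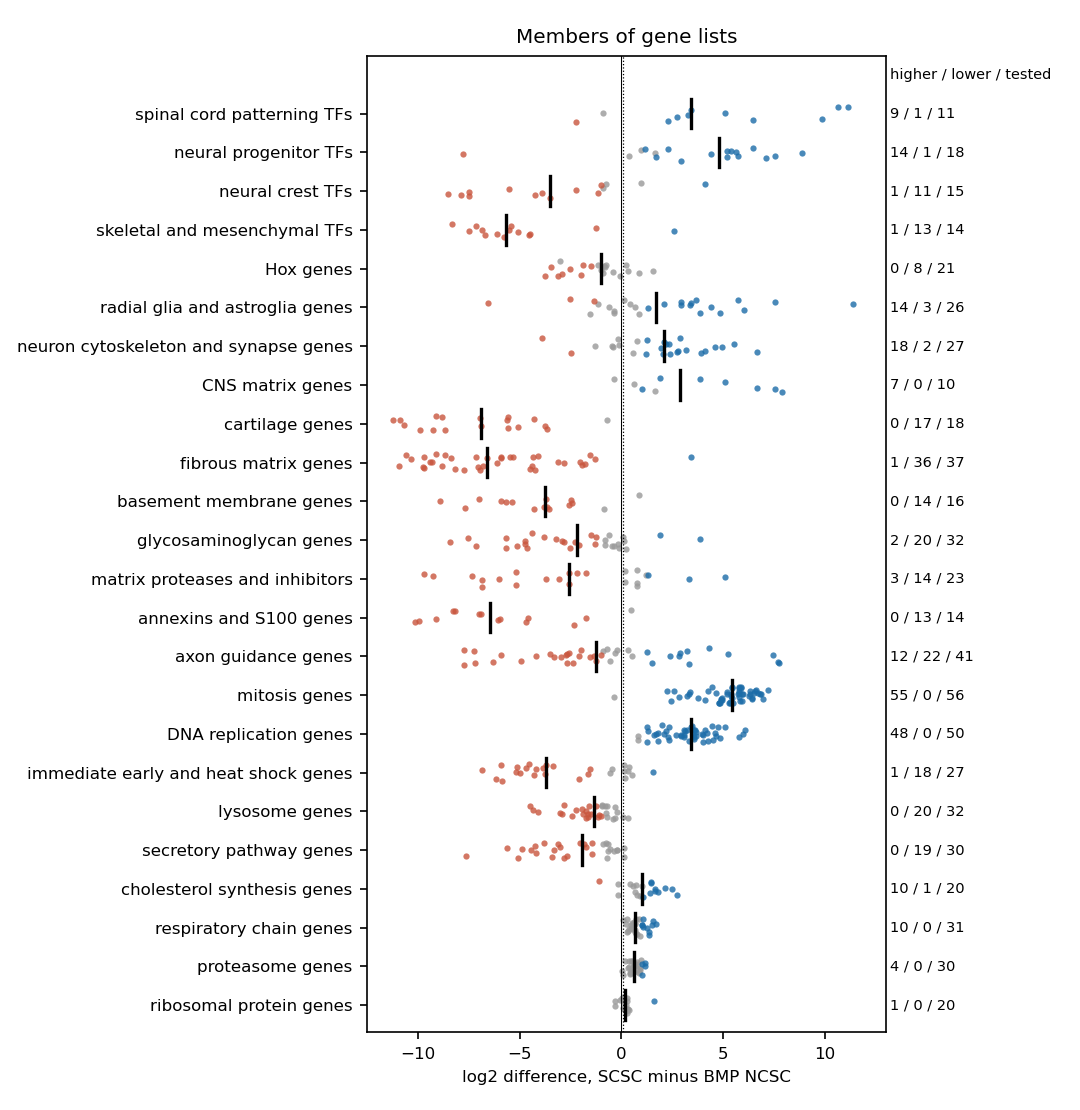
Log2 difference, SCSC minus BMP NCSC (x axis), of each tested member of 24 lists of genes (TFs, transcription factors), in blue where called higher, in red where called lower and in grey where not called. Thick bars are medians, the dotted line is the median over all genes tested, and the counts at the right are members called higher, called lower and tested, such as 55, 0 and 56 for mitosis and 0, 17 and 18 for cartilage.

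Genes that build and remodel matrix were lower in SCSC in part. Of 32 genes of glycosaminoglycan synthesis and their core proteins, 20 were lower and 2 higher (median -2.18). Has2, which makes hyaluronan, was at 3.02, 3.22 and 3.15 against 11.01, 10.24 and 9.65. The sulfate donor enzyme Papss2 was at 2.77, 2.95 and 2.87 against 11.07, 10.01 and 10.15, whereas its relative Papss1 was at 11.47, 11.57 and 11.42 against 11.40, 11.50 and 11.11, with overlapping arrays. The glypican Gpc3 and the syndecans Sdc2 and Sdc4 were lower in SCSC, with differences of -8.43 ± 0.29, -4.65 ± 0.11 and -4.74 ± 0.49, and the syndecan Sdc3 was higher, with 3.86 ± 0.30. In the secretory pathway, 19 of 30 genes were lower in SCSC and none higher (median -1.93). These included the collagen prolyl hydroxylase P4ha2 (difference -5.62 ± 0.40) and the collagen chaperone Serpinh1 (-2.996 ± 0.20), whereas the general chaperone Hspa5 (-0.74 ± 0.07) and the translocon gene Sec61b (0.12 ± 0.08) were not called. Of the 3 probe sets of Hspa5, however, 1 was called higher and 1 lower. Among 23 matrix proteases and their inhibitors, 14 were lower and 3 higher. The gelatinase Mmp2 was at 3.58, 3.26 and 3.13 against 12.63, 12.55 and 12.60, and Plat, tissue plasminogen activator, at 11.89, 11.997 and 12.11 against 7.49, 6.66 and 6.58. Both Mmp2 and its inhibitors Timp1, Timp2 and Timp3 were lower in SCSC, the inhibitors with differences of -5.16 ± 0.29, -3.09 ± 0.11 and -5.17 ± 0.41.

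Adhesion molecules differed in both directions. Of 30 cadherin and junction genes, 14 were higher in SCSC and 12 lower (median 0.73), beside 24.0% and 22.9% of all genes tested. Cdh4, R-cadherin, was at 10.61, 10.61 and 10.68 against 2.77, 2.79 and 2.63, and the protocadherin Pcdh10 at 9.57, 9.71 and 9.81 against 2.57, 2.78 and 2.71. In the other direction, the Schwann precursor cadherin Cdh19 was at 5.82, 5.99 and 6.35 against 11.62, 11.82 and 11.65 and the mesenchymal cadherin Cdh11 at 7.92, 8.52 and 8.47 against 11.84, 11.30 and 11.29. The arrays did not overlap for any of the 4, as for 83.6% of all genes tested. N-cadherin, Cdh2, was at 12.39 ± 0.11 and 11.65 ± 0.20 and not called, although 1 of its 2 probe sets was higher. The neural adhesion molecules Ncam1 and L1cam differed by 1.75 ± 0.14 and -5.88 ± 0.28, and Ncam1 was not called with the mean of its 4 probe sets (0.95). Integrin Itgb8 was higher (difference 2.98 ± 0.30), and Itga8 and Itga1 were lower (-7.05 ± 1.08 and -6.65 ± 0.54). Of 14 annexins and S100 proteins, which bind calcium, 13 were lower in SCSC (median -6.48), among them S100a6 (-9.93 ± 0.17), S100a4 (-9.12 ± 0.11) and Anxa4 (-8.19 ± 0.21). Of the 14, 6 had SCSC means under 4 and could pass the filter only through the other groups.

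Components of BMP signalling were called in both directions. Among 16 ligands, receptors and Smads tested, 4 were higher in SCSC and 6 lower (median -0.04), beside 24.0% higher and 22.9% lower among all genes tested. The ligand Bmp2 was at 3.53, 3.06 and 2.91 against 10.45, 10.55 and 11.14, Bmp5 at 2.88, 3.05 and 2.84 against 10.76, 11.13 and 10.46 and Gdf10 at 3.05, 2.67 and 3.08 against 10.86, 11.98 and 11.88. The SCSC arrays were at the lower end of the scale for all 3. Bmp7 was the ligand higher in SCSC, at 7.29, 7.36 and 7.60 against 4.61, 4.48 and 4.35. Transcripts of Bmp4 itself did not pass the filter, with means of 2.87 ± 0.07 and 4.57 ± 0.47.

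Of the type I receptors, Bmpr1b was at 8.75, 8.80 and 8.06 against 2.16, 2.26 and 2.21 (log2 difference 6.33, SE 0.38, adjusted p = 8.36e-07), and Acvr1 at 8.74, 8.70 and 8.92 against 11.91, 11.70 and 11.68 (log2 difference -2.98, SE 0.12, adjusted p = 7e-08). Bmpr1a was near equal, at 11.33, 11.24 and 11.12 against 11.42, 11.51 and 11.39, with a 95% interval of its difference from -0.41 to -0.01. Both kinds of sphere thus held a type I receptor transcript above 11, with Bmpr1b found in SCSC and Acvr1 more abundant in BMP NCSC. Of the type II receptors, Bmpr2 (11.96 ± 0.07 and 12.54 ± 0.09) and Acvr2a (9.40 ± 0.17 and 9.28 ± 0.14) were not called, and Acvr2b was higher in SCSC (6.08 ± 0.33 and 4.38 ± 0.16, difference 1.70 ± 0.24). For Bmpr2, 1 of its 2 probe sets was called lower. The signal transducers Smad1 and Smad4 were near equal, with differences of 0.23 ± 0.12 and 0.23 ± 0.09. Smad5 was called higher (difference 1.22 ± 0.11), a call lost in a test against a difference of 1 (limma treat, adjusted p = 0.115). Near equal means that the whole 95% interval lay between -0.5 and 0.5, which held for 1295 genes or 12.5% of those tested.

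Inhibitors and target genes of the pathway were mostly lower in SCSC. Of 13 inhibitors, 8 were lower and 2 higher (median -2.90), the latter 1 in each fit that left out an array other than SCSC 2. The inhibitory Smad6 was at 2.65, 2.72 and 2.74 against 10.33, 10.37 and 10.58, the secreted antagonist Grem1 at 3.496, 3.22 and 3.44 against 11.23, 10.02 and 10.50, and the pseudoreceptor Bambi at 7.399, 7.10 and 6.81 against 12.32, 12.74 and 12.36. All BMP NCSC arrays were at 10 or above for these genes, and Bambi was also detected on every SCSC array. Chrdl1, a secreted antagonist, was higher in SCSC, at 8.01, 7.93 and 8.57 against 3.51, 2.90 and 2.56. Of 15 target genes, 13 were lower and none higher (median -4.05), or 1 higher without BMP NCSC 2. Of those tested, 9 had SCSC means under 4 and could pass the filter only through the other groups. Id1 was at 7.43, 7.66 and 7.42 against 11.94, 12.04 and 11.85 and Id3 at 10.88, 10.48 and 10.62 against 13.02, 13.24 and 12.99, so both were expressed in SCSC as well. Dlx1, Dlx2, Msx2 and Tbx2 differed by -7.48 ± 0.20, -6.71 ± 0.14, -5.54 ± 0.32 and -7.13 ± 0.18 and had SCSC means under 4. In the TGF-beta and activin branch, 12 of 18 genes were lower, including the receptor Tgfbr2 at 5.25 ± 0.22 and 11.88 ± 0.12, and the activin subunit Inhbb was higher, at 7.45, 8.36 and 7.59 against 2.502, 2.89 and 4.02.

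**Figure D4:**
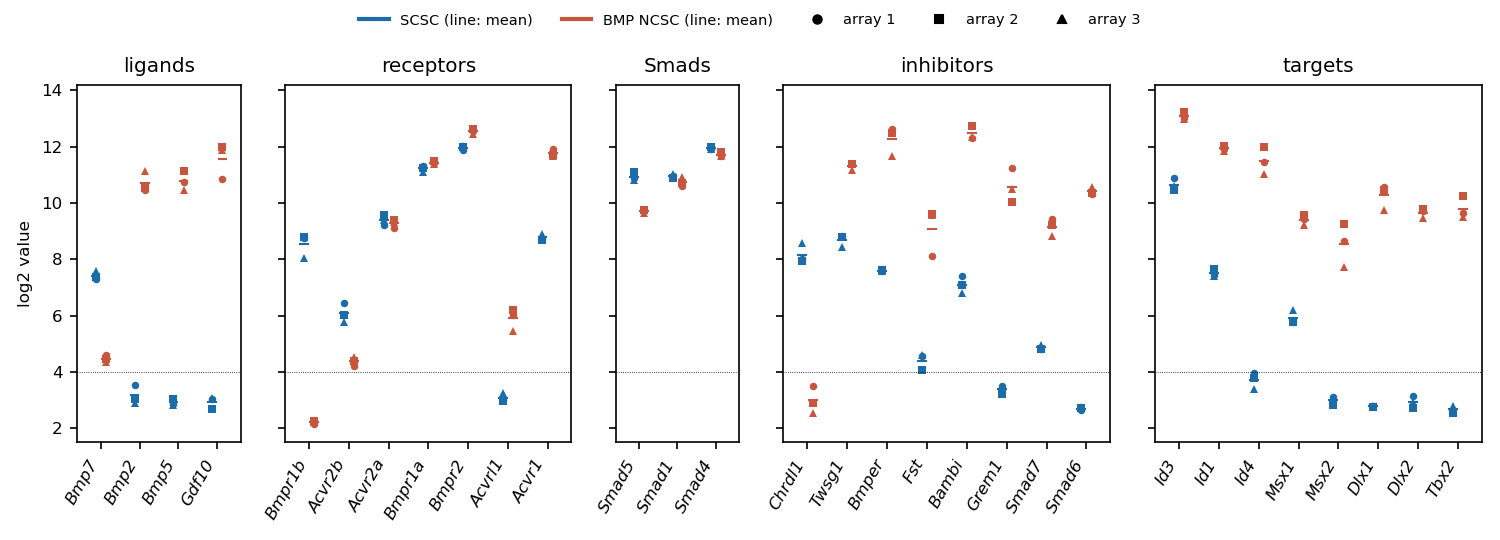
Log2 values on each array (y axis) of BMP pathway genes in 5 panels by role, with SCSC in blue and BMP NCSC in red, short lines at the means and a dotted line at 4. Bmpr1a, Smad1 and Smad4 lie together in both groups near or above 11, whereas Bmp2, Gdf10, Smad6 and the Dlx genes lie under 4 in SCSC and above 9 in BMP NCSC.

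Receptors and ligands of other pathways were distributed between the groups as follows. Among 19 Notch pathway genes, 8 were higher in SCSC and 4 lower, beside 24.0% higher and 22.9% lower among all genes tested. The ligand Dll1 was at 9.002, 9.47 and 8.58 against 2.65, 2.66 and 3.46 and the target Hes5 at 8.55, 8.81 and 8.11 against 3.30, 3.02 and 3.53, while the receptor Notch2 was at 9.22, 9.18 and 9.01 against 11.07, 11.10 and 10.88. Notch1 was not called, at 11.58 ± 0.18 and 11.03 ± 0.17. Of 32 Wnt genes, 7 were higher and 20 lower. The ligand Wnt7a was at 7.64, 7.79 and 7.61 against 2.60, 2.69 and 2.56, and the nuclear factor Lef1 at 3.13, 3.22 and 3.21 against 10.60, 10.47 and 10.50. The arrays within each group differed little for these. Of 10 hedgehog genes, 1 was higher and 4 were lower, the receptor Ptch1 was not called (difference 0.84 ± 0.17), and the target Gli1 stayed under 4 in both groups.

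Receptors of EGF and FGF, which both media held, differed between the groups. Egfr, the EGF receptor, was at 11.32, 11.32 and 11.40 in SCSC and 4.07, 4.16 and 4.97 in BMP NCSC (log2 difference 6.95, SE 0.29, adjusted p = 8.37e-08). Erbb3, the neuregulin receptor of Schwann cells, was at 3.13, 3.21 and 3.17 against 11.67, 12.02 and 11.74. The FGF receptors Fgfr1, Fgfr2 and Fgfr3 were lower in SCSC (differences -2.20 ± 0.14, -4.58 ± 0.39 and -2.43 ± 0.58), although Fgfr1 and Fgfr3 were at 9.81 ± 0.09 and 10.25 ± 0.42 there. The FGF-responsive factor Etv5 was at 12.004, 11.81 and 11.92 against 11.79, 11.87 and 11.88, with overlapping arrays and a 95% interval of its difference from -0.25 to 0.38, and the feedback genes Spry1 and Spry4 were not called (differences 0.68 ± 0.39 and 0.51 ± 0.27). For Spry4, 1 of its 3 probe sets was called higher. The ligand Fgf7 was at 3.35 ± 0.18 and 11.28 ± 0.60, and the EGF receptor ligand Tgfa at 6.12 ± 0.39 and 11.38 ± 0.26. Of 21 genes of PDGF, VEGF and KIT signalling, 14 were lower in SCSC and 3 higher. Pdgfrb, a receptor of pericytes and fibroblasts, was at 1.596, 1.597 and 1.70 against 9.82, 8.86 and 10.19.

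Receptors for neurotrophic factors also divided. Ntrk3, the receptor of neurotrophin 3, was at 7.65, 8.32 and 8.08 against 2.45, 2.80 and 3.21, and Ntrk2, the receptor of BDNF, differed by 3.14 ± 0.20. Ret, the receptor of GDNF ligands, was at 3.19, 2.997 and 3.27 against 7.90, 9.48 and 9.25, and the oncostatin M receptor Osmr at 2.500, 2.57 and 2.69 against 10.81, 10.23 and 11.59. The Ntrk receptors were thus on the SCSC side, and Ret and Osmr on the BMP NCSC side. Bdnf itself differed by -5.63 ± 0.40. Ednrb, the endothelin receptor of migrating crest cells and of radial glia, was at 10.57, 11.14 and 11.03 in SCSC and 2.58, 3.05 and 4.42 in BMP NCSC, and the sphingosine phosphate receptor S1pr3 at 2.19, 2.24 and 2.23 against 9.41, 10.21 and 9.60. In the IGF axis, the binding protein Igfbp2 was at 12.79 ± 0.13 and 5.37 ± 0.15 and Igfbp7 at 4.34 ± 0.04 and 11.61 ± 0.27. Among 8 retinoid genes 6 were lower in SCSC, including Cyp26b1, which degrades retinoic acid (difference -5.11 ± 0.28), and Aldh1a3, which makes it (-4.98 ± 0.24).

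Of 41 axon guidance genes, 12 were higher in SCSC and 22 lower (median -1.27), beside 24.0% higher and 22.9% lower among all genes tested. In this list 9 members had SCSC means and 8 had BMP NCSC means under 4. These could pass the filter only through the other groups. Ntn1, the netrin of the spinal floor plate, was at 10.87, 11.06 and 10.52 against 2.88, 3.04 and 3.29, and its attractive receptor Dcc at 9.39, 9.29 and 9.60 against 1.93, 1.98 and 1.98. The repulsive netrin receptor Unc5c was at 3.65, 3.85 and 4.20 against 11.85, 11.75 and 11.31. Ligand and attractive receptor were therefore both detected in SCSC and at the lower end in BMP NCSC, and Unc5c showed the reverse. The ephrin receptor Epha5 differed by 7.69 ± 0.15 and Epha3 by -5.93 ± 0.72, and the semaphorins Sema3a and Sema3d by 2.90 ± 0.27 and -7.75 ± 0.56. The repellent Slit3 was at 2.81 ± 0.15 and 10.07 ± 0.86. Among neuropeptides and the enzymes that process them, 7 of 11 were lower and 1 higher. The SCSC mean was under 4 for 5 of the 11 and the BMP NCSC mean for 1, with the same limit. Scg2, a secretory granule protein, was at 3.47, 3.27 and 3.34 against 8.50, 10.23 and 9.56, and Adm, adrenomedullin, at 7.38, 7.30 and 7.74 against 2.67, 2.77 and 3.54. Opioid receptors were not detected in either group: Oprd1, Oprk1 and Oprm1 were at 3.10 ± 0.05, 3.41 ± 0.01 and 4.02 ± 0.06 in SCSC and 3.65 ± 0.36, 3.47 ± 0.23 and 3.99 ± 0.06 in BMP NCSC.

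Cell cycle genes were nearly all higher in SCSC. Of 56 mitosis genes tested, 55 were higher in SCSC and none lower (median 5.43), and of 50 DNA replication genes, 48 were higher and none lower (median 3.45). Of the 56 and the 50, 17 and 6 had BMP NCSC means under 4 and could pass the filter only through the other groups. The spindle checkpoint kinase Bub1 was at 11.81, 11.74 and 11.60 against 3.85, 4.84 and 4.80 (log2 difference 7.22, SE 0.24, adjusted p = 2.56e-08), and Mki67, whose protein Ki-67 marks cycling cells, at 12.60, 12.62 and 12.65 against 6.61, 7.35 and 7.41. BMP NCSC 1 was the lowest array for both, and all BMP NCSC arrays lay at least 3 below those of SCSC. Tk1, a thymidine kinase of S phase, was at 10.33, 10.27 and 10.35 against 3.86, 4.54 and 4.36, and Pcna, the sliding clamp, at 13.56, 13.49 and 13.49 against 11.77, 12.07 and 11.86. Pcna was thus abundant in both groups. The separase inhibitor Pttg1, at 10.46, 10.64 and 10.25 against 10.97, 10.90 and 10.59, was the mitosis gene that was not called.

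Regulators that act in G1 were mixed, with 10 of 26 higher and 9 lower (median 0.56), beside 24.0% and 22.9% of all genes tested. The D-type cyclins differed from each other: Ccnd1 was at 13.42, 13.203 and 13.33 against 12.12, 11.74 and 11.69 and Ccnd3 at 8.02, 8.23 and 7.94 against 11.31, 11.32 and 11.51, whereas Ccnd2 was at 12.96 ± 0.03 and 13.27 ± 0.16 and was not called. Of the cyclin-dependent kinase inhibitors, Cdkn2b was at 5.26, 5.57 and 5.48 against 10.57, 10.22 and 10.06 and Cdkn1a differed by -2.20 ± 0.30, while Cdkn2c differed by 3.37 ± 0.20 and Cdkn1b was not called (difference 0.47 ± 0.10). The growth gene Myc differed by 2.93 ± 0.14. Of 17 chromatin and fetal stem cell genes, 10 were higher and none lower, led by the architectural factor Hmga2 (difference 3.99 ± 0.11), the remodeller Chd7 (3.93 ± 0.16) and the methyltransferase Ezh2 (3.79 ± 0.16).

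Promoters of cell cycle genes are shown because these genes were called in the same direction. The cell cycle homology element, a motif of G2 and M phase genes, was searched as TTTGAA, together with the CCAAT box, in windows of 300 bases, 250 before to 50 after a transcript's start, on both strands (RefSeq, GRCm38.p6). The table of promoters held 47 of the 56 genes. TTTGAA was in a promoter of 32 of these, or 68.1%, against 20.2% of all 27025 genes in the table and 1184 of the 8456 genes tested that it holds. Both motifs were in 28 or 59.6%, against 7.97% of all genes. TTTGAA beginning between 40 bases before and 20 bases after a start was found for 46.8% of the mitosis genes and 3.89% of all genes. In 1 mitosis promoter a match to TTTGAA overlapped a match to CCAAT. For the DNA replication genes, 40 of which were in the table, TTTGAA was in 17.5%, and an E2F-type motif (TTTCCCGC, TTTGGCGC or TTTCGCGC) in 42.5%, against 2.12% of all genes, 4.36% of the genes tested and 8.51% of the mitosis genes. These are matches of letters, and binding was not measured.

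The 3 called mitosis genes with the greatest difference that hold both motifs between 150 bases before and 20 after the start were the kinase Ttk (chr9:83834539-83834708, plus strand), the spindle protein Aspm (chr1:139454623-139454792, plus strand) and the ubiquitin-conjugating enzyme Ube2c (chr2:164769779-164769948, plus strand), and Cdc6 (chr11:98908001-98908170, plus strand), which loads the replicative helicase, is given for the E2F-type motif. Only genes in the promoter table could be chosen, and those of a single chromosome were left out of the choice. Each promoter is written 5′ to 3′ over 170 bases, with the matches in capitals, on either strand.
Ttk: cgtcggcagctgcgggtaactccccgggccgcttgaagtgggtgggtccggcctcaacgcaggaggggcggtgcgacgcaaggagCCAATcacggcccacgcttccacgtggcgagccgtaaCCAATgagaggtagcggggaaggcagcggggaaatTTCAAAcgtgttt
Aspm: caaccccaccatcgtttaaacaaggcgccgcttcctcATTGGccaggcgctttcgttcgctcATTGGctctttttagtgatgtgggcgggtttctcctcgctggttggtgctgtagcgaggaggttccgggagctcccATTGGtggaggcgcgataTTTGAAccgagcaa
Ube2c: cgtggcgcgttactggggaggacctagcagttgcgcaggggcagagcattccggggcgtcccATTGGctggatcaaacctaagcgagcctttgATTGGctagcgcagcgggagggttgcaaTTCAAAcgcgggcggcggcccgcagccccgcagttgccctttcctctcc
Cdc6: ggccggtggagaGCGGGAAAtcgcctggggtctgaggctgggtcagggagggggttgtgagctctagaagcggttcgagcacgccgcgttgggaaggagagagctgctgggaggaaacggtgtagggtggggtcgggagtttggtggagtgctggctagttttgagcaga

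Ttk was at 9.95, 9.99 and 9.76 in SCSC and 2.45, 3.27 and 3.13 in BMP NCSC, Aspm at 11.31, 11.51 and 11.29 and 3.78, 4.87 and 4.79, Ube2c at 12.48, 12.39 and 12.43 and 4.87, 6.52 and 6.25, and Cdc6 at 10.14, 10.02 and 10.29 and 3.89, 4.64 and 4.58. The TTTGAA match lies just after the start in Ttk and Aspm and before it in Ube2c, and all 4 genes were higher on every SCSC array, with differences of 6.95 ± 0.21, 6.89 ± 0.26, 6.55 ± 0.36 and 5.78 ± 0.19.

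Genes of contraction, of the Hippo pathway and of the immediate early response were mostly lower in SCSC. Of 22 contractile genes, 13 were lower and 3 higher. Smooth muscle actin, Acta2, was at 5.34, 5.22 and 5.59 against 12.45, 12.002 and 10.08, and Tagln at 3.36, 3.33 and 3.15 against 10.26, 10.45 and 7.51. BMP NCSC 3 was the lowest BMP NCSC array for both. Myh11, Cnn1 and Myocd, which mark mature smooth muscle, stayed under 4 in both groups. Tagln2, a relative of Tagln, was higher in SCSC, at 11.46, 11.45 and 10.95 against 7.43, 7.54 and 7.59. Targets of YAP and TAZ such as Ccn1 (difference -6.14 ± 0.27) and Axl (-4.87 ± 0.38) were lower, with 12 of 17 genes of that list lower and 1 higher. Of 27 immediate early and heat shock genes, 18 were lower and 1 higher (median -3.71). Fos was at 8.85, 8.83 and 8.95 against 12.82, 12.59 and 12.34 and the small heat shock protein Cryab at 4.34, 5.01 and 5.02 against 11.76, 11.53 and 11.64, whereas the constitutive chaperone Hspa8 was near equal, at 13.64 ± 0.11 and 13.51 ± 0.08. Of the 4 probe sets of Hspa8, however, 1 was called higher.

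Genes of inflammation and of interferon were mostly lower in SCSC. Of 15 chemokine, cytokine and complement genes tested, 11 were lower and 1 higher, and 10 of the 15 had SCSC means under 4 and could pass the filter only through the other groups. Of 14 interferon and antigen presentation genes, 10 were lower and 1 higher (2 without BMP NCSC 2), with 20 more under the filter. Ptgs2, the inducible cyclooxygenase, was at 2.22, 2.20 and 2.10 against 11.82, 11.78 and 10.81, and Lcn2, an iron-siderophore binding protein, at 3.83, 3.83 and 3.93 against 12.58, 11.19 and 14.53, with BMP NCSC 3 the highest and BMP NCSC 2 the lowest of its group. Ptgds, the prostaglandin D synthase of the brain, was higher in SCSC, at 9.59, 9.75 and 9.54 against 4.71, 4.33 and 6.26. Ifitm3, an antiviral membrane protein, was at 7.63 ± 0.26 and 12.12 ± 0.30, and B2m at 11.02 ± 0.05 and 12.40 ± 0.14. Classic interferon targets such as Mx1, Rsad2 and Irf7 stayed under or near 4 in both.

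Genes of metabolism differed by pathway. Of 31 respiratory chain genes, 10 were higher in SCSC and none lower (median 0.69), with Cyc1 at 12.40, 12.42 and 12.31 against 10.67, 10.88 and 10.49. Of 20 cholesterol synthesis genes, 10 were higher and 1 lower (0 without BMP NCSC 2, median 1.03), with Dhcr7, which makes the last step, at 9.59 ± 0.14 and 6.86 ± 0.08. Genes of serine and glycine metabolism were split. Gldc, the glycine cleavage enzyme, was at 9.60, 9.51 and 9.64 against 2.25, 2.56 and 2.29, and Phgdh, the first enzyme of serine synthesis, differed by 1.68 ± 0.14. Stress response genes of the same list such as Trib3 (difference -6.06 ± 0.25) and Ddit3 (-2.77 ± 0.20) were lower in SCSC. Of 32 lysosome genes, 20 were lower and none higher (median -1.36), with cathepsin F, Ctsf, at 5.05 ± 0.06 and 9.54 ± 0.23. In detoxification, metallothionein Mt3 was at 8.97 ± 0.30 and 4.60 ± 0.04, and the quinone reductase Nqo1 at 7.02 ± 0.25 and 12.16 ± 0.30.

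Genes used by every cell were close in level. Of 20 ribosomal protein genes, 14 were near equal and 1, Rps25, was called (median 0.17). Rplp0 was at 14.14, 14.12 and 14.08 against 14.01, 13.98 and 13.98. Proteasome genes were shifted slightly towards SCSC, with 4 of 30 called and a median of 0.61. Near equal genes of high level in other lists included Gnas, a G protein subunit, at 13.02 ± 0.11 and 13.25 ± 0.12, the imprinted gene Ndn at 12.90 ± 0.08 and 12.73 ± 0.06, the RNA-binding protein Msi2 at 11.08 ± 0.17 and 10.95 ± 0.20, and Mib1, which activates Notch ligands, at 10.99 ± 0.05 and 11.16 ± 0.06. Imprinted genes were otherwise divided: Nnat and Mest were higher (differences 9.04 ± 0.13 and 1.75 ± 0.34), while Meg3 and Plagl1 were lower (differences -7.39 ± 0.34 and -4.30 ± 0.26).

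Spread within the groups was larger in BMP NCSC. The median SD of a gene over 3 arrays was 0.12 in SCSC and 0.15 in BMP NCSC, and the SD exceeded 1 for 19 genes in SCSC and 150 in BMP NCSC. The array farthest from its group's median was BMP NCSC 3 for 110 of the 150, BMP NCSC 1 for 23 and BMP NCSC 2 for 17. In SCSC it was SCSC 2 for 13 of 19 and SCSC 1 for 6.

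In SCSC the genes that varied included those of the response to low oxygen. Bnip3, a mitophagy gene, was at 7.73, 11.52 and 7.58 in SCSC and 11.10, 10.88 and 11.69 in BMP NCSC. Pdk1, which limits entry of pyruvate to mitochondria, was at 6.64, 10.54 and 7.09 against 10.19, 9.80 and 10.89, and the stress gene Ndrg1 at 4.06, 7.12 and 4.29 against 9.91, 9.68 and 11.27. SCSC 2 lay far above its replicates for each of them. Without SCSC 2, Bnip3 differed by -3.57 (limma, adjusted p = 6.41e-05) and Pdk1 by -3.43 (adjusted p = 0.000322). With all arrays, their differences of -2.28 ± 0.94 (adjusted p = 0.0501) and -2.21 ± 0.93 (adjusted p = 0.0545) were not called. Ndrg1 was called with SCSC 2 (-5.13 ± 0.79) and without it (-6.11). The glucose transporter Slc2a3 was at 7.21, 10.41 and 7.51 against 4.71, 6.10 and 6.74 and was not called with all arrays (adjusted p = 0.0516), but was without SCSC 1 (3.11, adjusted p = 0.0404). Ldha and Pgk1, which are abundant glycolytic genes, were at 12.86 ± 0.39 and 12.96 ± 0.21 in SCSC and 13.38 ± 0.03 and 12.46 ± 0.11 in BMP NCSC and were not called.

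Xist, the non-coding RNA of the inactive X chromosome, was at 2.40, 11.74 and 2.62 in SCSC and 11.68, 11.67 and 10.67 in BMP NCSC. The Y-linked gene Kdm5d was at 8.62, 6.21 and 8.63 in SCSC and 6.09, 5.82 and 7.86 in BMP NCSC. SCSC 2 and the 3 BMP NCSC arrays thus held both transcripts, and SCSC 1 and SCSC 3 held the Y-linked transcript without Xist. Neither gene was called (adjusted p of 0.116 and 0.522 in limma), and without SCSC 2 Xist was (-8.83, adjusted p = 0.0183), as it was with arrays weighted by their quality (-6.68, adjusted p = 0.0487). The part of this difference in other results was not tested.

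In BMP NCSC the third array was high for some genes of fat cells. Fabp4, a fatty acid binding protein of adipocytes, was at 4.30, 7.39 and 11.81 in BMP NCSC and 2.30, 2.55 and 2.34 in SCSC, and Adipoq, adiponectin, at 2.95, 4.43 and 8.61 and 2.66, 2.56 and 3.05. Cd36, a fatty acid transporter, was at 2.80, 3.29 and 6.41 in BMP NCSC. BMP NCSC 3 was the highest array for all 3, and none passed the filter on 3 arrays. The mean over 8 adipocyte markers was 3.76 to 6.78 on the BMP NCSC arrays and 3.56 to 3.67 on the SCSC arrays, with Cidec and Lep under 4 in both groups. Of the 2 adipocyte markers tested, 1 was called lower in SCSC and 1 was not called. The lower call was lost without SCSC 2, without SCSC 3 or without BMP NCSC 2. Without BMP NCSC 3, 1 adipocyte marker was called higher in SCSC. The chemokine Cxcl5 was also highest on BMP NCSC 3, at 6.23, 6.25 and 11.60, and its difference from SCSC was -5.84 ± 1.24 with all arrays and -4.05 without that array.

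Other genes were low on BMP NCSC 3 or high on BMP NCSC 2. The Wnt inhibitor Dkk1 was at 10.07, 11.28 and 6.15 and the collagen-associated gene Cthrc1 at 9.78, 9.26 and 5.23, with BMP NCSC 3 the lowest for both. The neuropeptide Npy was at 7.78, 10.67 and 6.11 and Coch, cochlin, at 6.73, 9.31 and 5.03, with BMP NCSC 2 the highest. Vip, another neuropeptide, was at 4.91, 8.69 and 9.47 and so reached 5 on 2 of them. Dkk1, Cthrc1, Npy and Coch were at or under 4 on every SCSC array and were called lower there, with differences of -6.05 ± 1.08, -5.06 ± 1.01, -4.61 ± 0.92 and -3.68 ± 0.86.

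**Figure D5:**
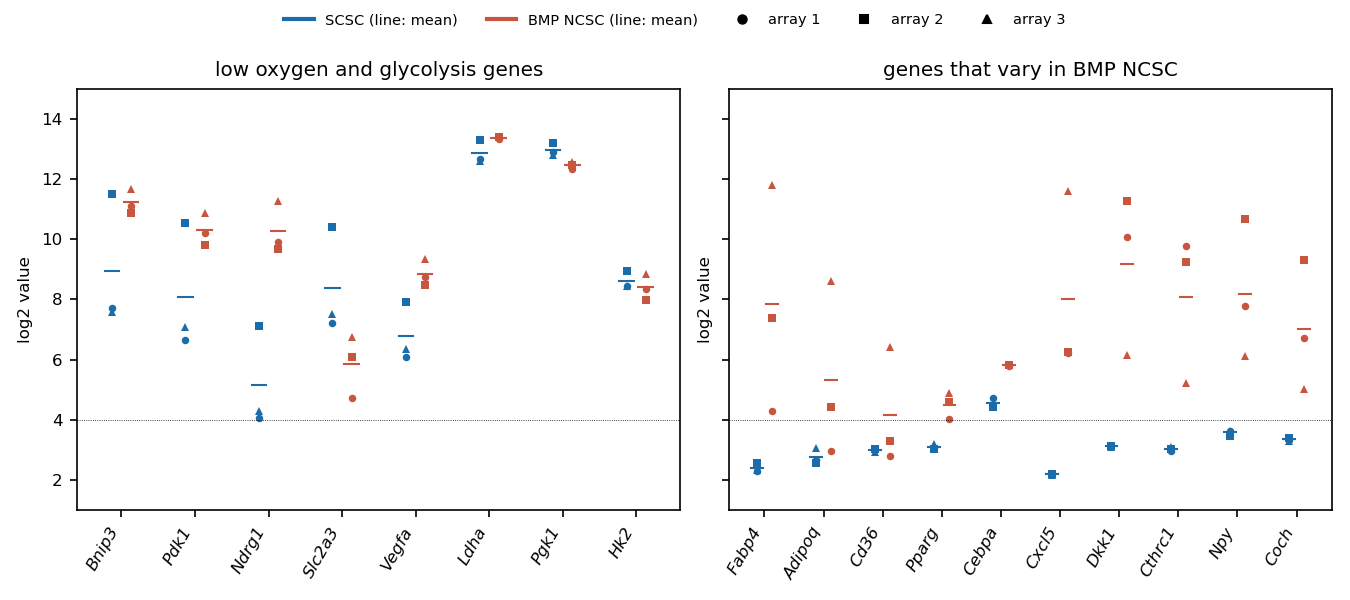
Log2 values on each array (y axis) of genes of low oxygen and glycolysis (left) and of genes that vary in BMP NCSC (right), with symbols for arrays 1 to 3, short lines at the means and a dotted line at 4. On the left the square of SCSC 2 is above its replicates for Bnip3, Pdk1, Ndrg1 and Slc2a3, and on the right the triangle of BMP NCSC 3 is highest for Fabp4, Adipoq, Cd36 and Cxcl5 and lowest for Dkk1, Cthrc1, Npy and Coch.

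The DRG spheres grown without BMP4 lay with SCSC for nearly all genes that separate SCSC from BMP NCSC. Of 4839 called genes, the rNCSC mean was nearer to BMP NCSC for 56, of which 22 had an SD of at most 0.5 over the rNCSC arrays. Among the 56 was Cacna2d1, a calcium channel subunit, at 7.71, 7.37 and 8.79 in rNCSC, 6.21, 5.56 and 5.17 in SCSC and 9.16, 9.68 and 9.69 in BMP NCSC. The RNA-binding protein Igf2bp3 was at 7.06, 8.98 and 7.30 in rNCSC, between 9.52 ± 0.08 in SCSC and 6.49 ± 0.12 in BMP NCSC. Chl1, a neural adhesion molecule, was at 11.33, 10.76 and 12.52 in rNCSC, 9.13 ± 1.28 in SCSC and 12.22 ± 0.83 in BMP NCSC. Id1 and Cryab, given above for BMP NCSC, were intermediate in rNCSC, at 9.38, 8.61 and 8.24 and 6.64, 6.24 and 6.92, and nearer to SCSC. These values are a description, because the filter and the estimate of the spread also used these arrays.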

How the data were processed

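RNA of cultured spheres was measured on 9 Affymetrix mouse arrays. The deposited values are log2 values per probe set that the authors made with GCRMA, which corrects background, normalizes between arrays and summarises probes, per the submitters' processing notes; the GCRMA version was not given in the sources used here. Arrays were grouped by title. Of 45101 probe sets, 34958 had 1 gene symbol, 932 had several and 9211 were not listed in the annotation table used, and the last 2 groups and 64 control probe sets were left out. For each of 18194 genes 1 probe set was used, that of highest mean across all 9 arrays (9012 genes had more than 1).

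Genes that reached 5 on at least 3 of 9 arrays were fitted in limma 3.58.1 (R 4.3.3) as 3 group means, with empirical Bayes variances (6 residual and 2.39 prior degrees of freedom) and Benjamini-Hochberg adjustment over all 10320 genes, 2-sided. Adjusted p-values are from this fit unless a left-out array or another alternative is named. Calls required an adjusted p below 0.05 together with a difference of 1 or more. The code was tested on simulated data.

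The 69 gene lists and the rule for named genes (the 15 greatest called differences each way, up to 4 called members each way per list, abundant members not called or opposed, near-equal and most variable genes, and a fixed set) were chosen with earlier results of these data known. Of 302 genes named, Tubb3, Kit and Mitf aside, 79 fall outside the rule and were chosen after their values were seen. Promoter windows came from RefSeq (GRCm38.p6), and no genome or protein sequence was used here. The deviations of same-numbered arrays correlated at 0.0461, 0.1451 and 0.1939, so the numbers were not taken to pair the samples.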

Additional observations from a re-analysis of the deposited data

How the results depend on the processing

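Over 20 alternatives the count of genes called higher in SCSC stayed between 1775 and 2581 and the count called lower between 1794 and 2644, each within 1.5 times the values given. The lowest counts came from a test against a difference of 1 (limma treat), where 3569 genes passed an adjusted p below 0.05 because small differences no longer count. Without the filter on low values 7042 genes were near equal, since 18194 genes entered. Leaving out 1 array at a time gave 2426 to 2527 genes higher, 2331 to 2389 lower, 7711 to 7969 with an adjusted p below 0.05 and 974 to 1141 near equal. With the replicate number as a block, 2477 genes were higher and 2364 lower and Xist was called (adjusted p = 0.034 in limma), and not every array correlated best with its own number, since SCSC 1 did so with BMP NCSC 2 (0.1178). Of 227 called genes named, 6 (B2m, Bcan, Fgfr3, Mest, Ncam1 and Smad5) lost the call under some alternative in which they were tested. None changed sign there. Some named genes were not tested under every alternative, because they did not pass its filter or had no probe set left. Such cases were not counted as lost calls. Among genes named and not called, Bnip3, Cdh2, Notch3, Pdk1, Slc2a3, Xist and Zeb2 were called under some alternative that kept all arrays. Tubb3, Kit and Mitf were not followed over the alternatives and are not in these counts. Signals near the lower end of the scale, under about 4, limit the size of 987 called differences.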

Other observations

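Genes of cell death were called in both directions. Of 23 apoptosis genes tested, 4 were higher in SCSC and 8 lower (median -0.16), against 24.0% higher and 22.9% lower among all genes tested. The death receptor Fas was at 3.43, 3.80 and 3.53 in SCSC and 8.90, 8.73 and 9.91 in BMP NCSC, and the inflammatory caspase Casp4 at 2.27, 2.36 and 2.29 against 8.49, 8.43 and 10.03. Casp8, the caspase that death receptors recruit, was at 4.48, 4.02 and 4.45 against 7.61, 7.89 and 7.42. All BMP NCSC arrays were above all SCSC arrays for these 3 genes, and the groups did not overlap for 83.6% of all genes tested. The effector caspase Casp6 (difference -0.43 ± 0.15) and the survival gene Mcl1 (-0.14 ± 0.08) were not called. Tnfrsf21, death receptor 6, went the other way, at 9.39, 9.37 and 9.34 against 5.53, 5.47 and 7.43. Fas is also a target of p53, and of 17 p53 target genes 4 were higher and 6 lower, to be read against the same shares of all genes.

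Genes of detoxification and mineralisation were called in both directions. Of 30 glutathione and detoxification genes, 5 were higher in SCSC and 11 lower (median -0.54), again beside 24.0% and 22.9% of all genes. Glutathione reductase, Gsr, was at 9.46, 9.41 and 9.23 against 6.60, 6.43 and 6.39, whereas the glutathione transferase Gstm2 was at 3.85, 3.67 and 3.82 against 9.80, 9.93 and 10.47. The groups did not overlap for either gene, as for 83.6% of all genes tested. Of 4 bone and mineralisation genes tested, 3 were lower and 1 higher. Dmp1, a matrix protein of bone and dentine, was at 1.97, 2.19 and 2.05 against 11.72, 10.58 and 10.10, and Alpl, the alkaline phosphatase used as a marker of osteoblasts, at 5.68, 5.56 and 5.48 against 3.79, 3.68 and 3.94. Alpl was thus the member of that list higher in SCSC. Dlk1, an imprinted gene that restrains fat cell formation, was at 3.04, 3.13 and 3.30 against 7.60, 5.92 and 7.96, and 7 of 13 imprinted genes were lower and 3 higher.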
